A study of Mus musculus with 12 samples.

Results

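Matrix metalloproteinases and their tissue inhibitors were followed through the differentiation of C2C12 cells, with and without a bromodomain inhibitor. The 10 genes were taken by symbol from the gene tables: the enzymes Mmp2, Mmp3, Mmp9, Mmp11, Mmp14, Mmp19 and Mmp23, and the inhibitors Timp1, Timp2 and Timp3. They are 10 of 16288 genes listed in at least 1 library. The low-count filter kept 12545 genes for testing, among them 9 of the 10; Mmp3 was listed in only 2 libraries, with 1 count in each.

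C2C12 is an immortalized mouse myoblast line that withdraws from the cell cycle, fuses and builds contractile fibres when serum is reduced. All 12 libraries are of RNA from this line, and no animal or second line was used. The 6 groups were proliferating cells in growth medium with fetal bovine serum (GM) and cells 24 h (DM 24h) or 48 h (DM 48h) after a change to differentiation medium with horse serum and insulin, each with DMSO, the vehicle, or with 50 uM PFI-3. PFI-3 binds the bromodomains of BRM and BRG1, the ATPases of the SWI/SNF chromatin remodellers, and of a subunit of the related PBAF complex. Cells of all groups were exposed to DMSO or PFI-3 ahead of the harvest or the medium change, and the agent was renewed daily in differentiation medium. Each group had 2 libraries, A and B, described as biological duplicates.

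Matrix metalloproteinases are zinc endopeptidases that cut collagens, laminins, fibronectin, growth factor carriers and one another, and most are made as inactive proenzymes. TIMPs block them by occupying the catalytic cleft, but Timp2 has a second role: bound to Mmp14 at the cell surface it holds pro-Mmp2 in place for a neighbouring Mmp14 molecule to activate it. In skeletal muscle these proteinases are known for their part in myoblast migration, fusion and the remodelling of the basement membrane. Transcript levels, which are what was measured here, say nothing of how much enzyme was active.

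Total expected counts ran from 12576374 to 13658352 per library. The replicates were less alike in GM than later: among genes of 50 counts or more, the log2 ratio of library B to library A had an SD of 0.328 with DMSO and 0.303 with PFI-3 in GM, against 0.139 to 0.149 in the 4 DM pairs. The 7 myoblast and muscle marker genes were all listed. Their summed CPM (the count scaled by library size) was 782 and 810 in the GM DMSO libraries, 3084 and 3079 at DM 24h, then 10966 and 10969 at DM 48h. With PFI-3 the same sums were 490 and 615, 1867 and 1843, and 7971 and 7485. The sum thus moved with both the stage and the treatment. Des and Myod1 followed it at each step, but not every marker did. Mean Myf5 with DMSO went from 60 CPM in GM to 40.9 at DM 24h, where it was 48.9 with PFI-3. Cdh15 with DMSO went from 650 CPM at DM 24h to 582 at DM 48h. Myog, Myh3 and Ckm, with means of at most 0.934 CPM in GM, were higher there with PFI-3. The part of the muscle markers in the results below was not tested. Of the markers of other cells, the endothelial sum did not pass 1.8 CPM and the adipocyte sum 0.214 CPM in any library. The 4 fibroblast markers moved too: their sum was 167 and 228 CPM with DMSO and 98.4 and 135 with PFI-3 in GM, 485 and 483 against 372 and 358 at DM 24h, then 377 and 360 against 362 and 343 at DM 48h. Most of it was Pdgfrb, a receptor that is not limited to fibroblasts. Within that sum Pdgfra went the other way with PFI-3, from a mean of 8.95 to 14.3 CPM in GM, 11.6 to 25.5 at DM 24h and 11.1 to 23.3 at DM 48h. Dcn stood at 0.258 and 0.249 CPM in GM and between 12.8 and 20.6 in the DM groups, and Thy1 at or near 0. The part of these markers in the results was not tested. In bulk RNA, fewer cells of a type and less RNA per cell cannot be told apart.

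Of the 10 genes, 7 matched the RefSeq promoter table (GRCm38.p6); Mmp2, Mmp9 and Mmp19 did not. Promoters are shown for the 3 TIMPs, the inhibitors of the set, for Mmp14, the enzyme with the highest median level, and for Mmp3, which was nearly silent. Each line gives the 250 bases before the annotated start, 5′ to 3′ on the gene's strand, with motif matches in capitals. The AP-1 motif was searched as TGANTCA on both strands of these windows. The GC box, the core that Sp1 family factors bind, was searched as GGGCGG, also on both strands. The TATA box was searched as TATAAA, likewise on both.
Timp1: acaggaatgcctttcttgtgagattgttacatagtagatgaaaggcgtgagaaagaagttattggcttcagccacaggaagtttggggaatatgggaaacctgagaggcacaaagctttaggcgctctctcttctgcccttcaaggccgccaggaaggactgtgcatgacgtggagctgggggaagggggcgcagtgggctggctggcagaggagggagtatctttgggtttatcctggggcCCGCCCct
Timp2: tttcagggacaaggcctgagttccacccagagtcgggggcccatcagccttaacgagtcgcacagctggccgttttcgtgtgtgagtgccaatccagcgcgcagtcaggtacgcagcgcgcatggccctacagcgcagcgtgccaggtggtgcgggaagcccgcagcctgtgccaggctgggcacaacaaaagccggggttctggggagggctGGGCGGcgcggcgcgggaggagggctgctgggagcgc
Timp3: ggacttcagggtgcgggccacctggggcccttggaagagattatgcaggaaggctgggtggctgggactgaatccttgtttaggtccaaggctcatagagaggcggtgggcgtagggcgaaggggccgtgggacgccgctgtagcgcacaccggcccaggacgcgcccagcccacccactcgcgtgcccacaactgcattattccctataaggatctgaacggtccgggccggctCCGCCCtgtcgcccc
Mmp14: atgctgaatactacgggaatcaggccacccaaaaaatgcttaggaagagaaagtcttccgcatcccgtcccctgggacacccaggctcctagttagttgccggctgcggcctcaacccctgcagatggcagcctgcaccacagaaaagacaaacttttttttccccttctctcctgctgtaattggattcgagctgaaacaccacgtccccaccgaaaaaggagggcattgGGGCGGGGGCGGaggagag
Mmp3: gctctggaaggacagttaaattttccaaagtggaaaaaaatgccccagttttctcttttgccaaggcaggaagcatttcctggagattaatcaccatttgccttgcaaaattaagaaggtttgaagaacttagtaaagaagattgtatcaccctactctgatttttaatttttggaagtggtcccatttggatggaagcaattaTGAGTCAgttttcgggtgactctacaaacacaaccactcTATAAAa
Mmp3 (chr9:7445572-7445821, plus strand) held TGAGTCA 46 bases before the start and TATAAA 7 bases before it. The 3 TIMP windows, Timp1 (chrX:20869916-20870165, plus), Timp2 (chr11:118355412-118355661, minus) and Timp3 (chr10:86300162-86300411, plus), each held 1 GC box, at 8, 37 and 15 bases before the start. Mmp14 (chr14:54431348-54431597, plus) held 2 adjoining GC boxes, at 19 and 13 bases. The Mmp11 window also held 2 GC boxes, at 52 and 19 bases, and the Mmp23 windows held none of the 3 motifs. Over all 32851 promoter windows of the same length, 6.75% held the AP-1 motif, 32.7% the GC box and 12.4% the TATA box. A match describes letters and not a bound site.

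Levels of different genes were compared by FPKM, which scales fragments by transcript length. In GM with DMSO the inhibitors led: Timp1 stood at 401 and 250 FPKM in libraries A and B, and Timp2 at 232 and 282 FPKM. Mmp14, the membrane-anchored collagenase, followed at 102 and 103 FPKM, and Timp3, the inhibitor that binds to the matrix and also blocks some ADAM and ADAMTS proteinases, at 105 and 86 FPKM. The FPKM ranges of Timp1 and Timp2 overlapped, as did those of Mmp14 and Timp3 and those of Mmp2 and Mmp11, so these neighbours have no order in GM.

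In every DM group the order of levels was the same, and no neighbours overlapped: Timp2, Mmp14, Mmp2, Timp1, Mmp11, Timp3, Mmp19, Mmp23 and Mmp9. Over the 12 libraries the median level was 314 FPKM for Timp2, 159 for Mmp14, 129 for Mmp2 and 77.7 for Timp1. It was 33.9 for Mmp11, 29 for Timp3, 5.88 for Mmp19, 2.87 for Mmp23 and 0.36 for Mmp9. By these medians the 2 most abundant enzymes were the pair of the pro-Mmp2 activation route, and Timp2, the inhibitor that takes part in it, was the most abundant of all 10 genes.

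**Figure D1:**
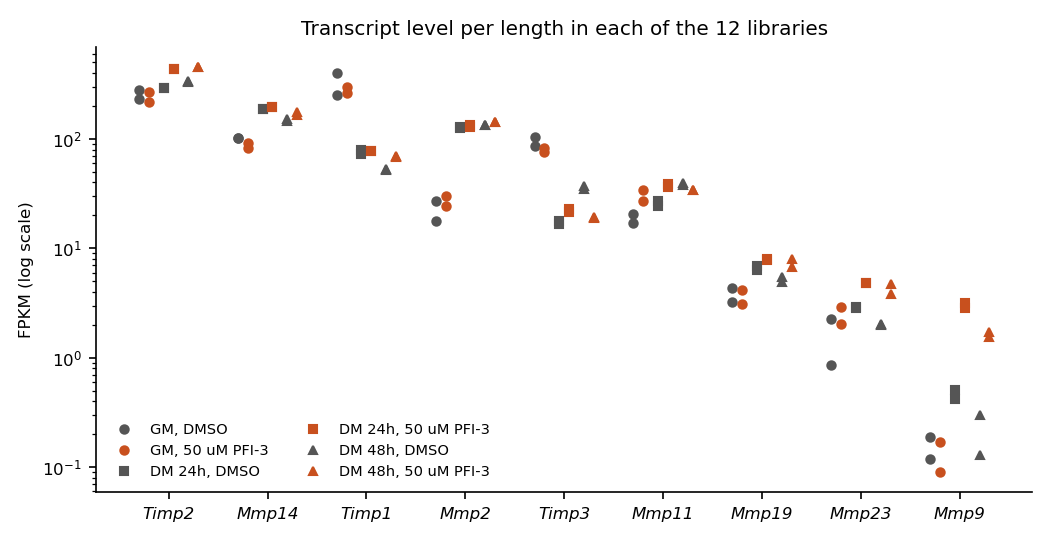
Level per transcript length (FPKM, log axis) of 9 genes in each library, with stage by symbol (circle GM, square DM 24h, triangle DM 48h) and treatment by colour (grey DMSO, orange 50 uM PFI-3). Timp2 is highest in all DM libraries and Mmp9 lowest everywhere, while Timp1 and Timp3 drop and Mmp2 climbs from GM to DM.

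The stage comparisons asked how the set moves as DMSO-treated myoblasts differentiate. Between GM and DM 24h, 8 of the 9 tested genes were called at an adjusted p-value under 0.05 (edgeR), 6 higher and 2 lower. Most of the transcriptome moved as well: 60.6% of all tested genes were called, 30.6% higher and 30% lower. Between GM and DM 48h, 7 of 9 were called, 5 higher and 2 lower, where 73.1% of all genes were, 37.2% higher and 35.9% lower. From DM 24h to DM 48h, 5 of 9 were called, 3 higher and 2 lower, against 48.1% of all genes, 24.2% higher and 23.9% lower. The first 2 comparisons share their GM libraries. With any of the libraries named next left out, fewer of all tested genes were called too. Without GM DMSO library A the first count was 5. The last was 2 without DM 48h DMSO library B and 3 without any 1 of the other DM libraries but DM 48h DMSO library A.

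Mmp2, gelatinase A, which cuts type IV collagen and denatured collagens, stood at 56.5 and 81.4 CPM in GM, 376 and 387 at DM 24h, then 420 and 417 at DM 48h with DMSO. All 4 DM libraries were far above both GM libraries. It rose by 2.47 on the log2 scale at DM 24h (SE 0.14, 5.53-fold, adjusted p = 2.86e-08) and was 6.06-fold above GM at DM 48h (adjusted p = 6.23e-09). From DM 24h to DM 48h the difference was 0.13 (adjusted p = 0.428).

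Mmp14, also called MT1-MMP, activates pro-Mmp2 and cuts fibrillar collagen. Its level was 406 and 389 CPM in GM, 698 and 700 at DM 24h, then 596 and 572 at DM 48h. The DM 24h libraries were highest, with the DM 48h libraries between them and GM. Mmp14 rose by 0.81 (SE 0.07, adjusted p = 9.3e-07) at DM 24h and then fell by 0.26 to DM 48h (adjusted p = 0.00783), a call that was lost without DM 48h DMSO library B (adjusted p = 0.0758).

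Mmp11, stromelysin 3, is activated inside the cell by furin-type proteases. Its libraries read 38.9 and 45.2 CPM in GM, 58.9 and 52.9 at DM 24h, then 84.3 and 88.7 at DM 48h. Each stage was above the one before without overlap. The log2 change from GM was 0.41 at DM 24h (SE 0.11, adjusted p = 0.00694) but 1.04 at DM 48h (SE 0.11, adjusted p = 2.82e-06). The first of these was lost without library A of GM DMSO or of DM 24h DMSO (adjusted p up to 0.0681). The second exceeded the first by 0.63 (adjusted p = 0.000431). Mmp11 shares exon bases with Chchd10, and the part of Chchd10 in these values, given below, was not tested.

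Mmp19, a basement membrane proteinase, went from 11.1 and 14.4 CPM in GM to 22.4 and 20.5 at DM 24h, then 16.7 and 18.5 at DM 48h. It rose by 0.75 at DM 24h (SE 0.16, adjusted p = 0.00146) and was 0.46 above GM at DM 48h (adjusted p = 0.0218). The DM 48h call was lost without GM DMSO library A or DM 48h DMSO library B (adjusted p up to 0.148).

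Mmp9 and Mmp23 were the scarce tested enzymes. Mmp9, gelatinase B, held 5 and 8 counts in GM, 20 and 17 at DM 24h, then 12 and 5 at DM 48h with DMSO. The DM 24h pair was above the others, and the GM and DM 48h pairs overlapped. The rise at DM 24h was 1.53 (SE 0.43, adjusted p = 0.00823). That call was lost without GM DMSO library A (adjusted p = 0.0544). The fall from DM 24h to DM 48h was -1.05 (SE 0.41, adjusted p = 0.0493) and was lost in 5 of 9 alternative analyses (adjusted p up to 0.126) and without any of 7 of the 12 libraries (up to 0.349). Mmp23, an unusual membrane proteinase released by its own cleavage, read 1.25 and 3.1 CPM in GM and 3.8 and 4.02 at DM 24h. Its call (0.83, SE 0.34, adjusted p = 0.0482) was lost in 3 of 9 alternatives and without any of 9 of the 12 libraries (adjusted p up to 0.345). Without GM DMSO library B the Mmp23 value was 1.63, and without DM 48h DMSO library A the Mmp9 fall was -1.8. At DM 48h Mmp23 (2.85 and 2.86 CPM) was within the range of GM. Mmp9 was above both GM values in library A and between them in library B.

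The inhibitors went separate ways. Timp1 stood at 351 and 207 CPM in GM, 65.2 and 60.8 at DM 24h, then 45.5 and 44.6 at DM 48h with DMSO. Although the GM pair was wide, both of its libraries lay far above the DM libraries. Timp1 fell by 2.15 at DM 24h (SE 0.18, 4.43-fold lower, adjusted p = 1.02e-06) and was 6.2-fold lower than GM at DM 48h (adjusted p = 8.12e-08).

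Timp3 dropped furthest at DM 24h, from 516 and 400 CPM to 81 and 77.8, then stood at 169 and 178 CPM at DM 48h. Both DM 48h libraries were above both DM 24h libraries and below both GM libraries. The fall at DM 24h was 5.77-fold (log2 change -2.53, SE 0.11, adjusted p = 2.5e-09), and the recovery from DM 24h to DM 48h was 2.19-fold (1.13, SE 0.11, adjusted p = 3.63e-06).

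Timp2 moved least, from 880 and 1013 CPM in GM to 1033 and 1056 at DM 24h, then 1256 and 1240 at DM 48h. The difference at DM 24h was 0.14 (adjusted p = 0.2), and at DM 48h Timp2 was 0.40 above GM (SE 0.09, adjusted p = 0.00181). The step from DM 24h to DM 48h, 0.26 (adjusted p = 0.0359), was lost with limma on FPKM values (adjusted p up to 0.143) and without any 1 of the 8 DM libraries (up to 0.151). As a share of the summed TIMP FPKM, Timp2 went from between 31.4% and 45.7% in the GM libraries, both treatments, to between 74.9% and 83.6% in the DM libraries.

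**Figure D2:**
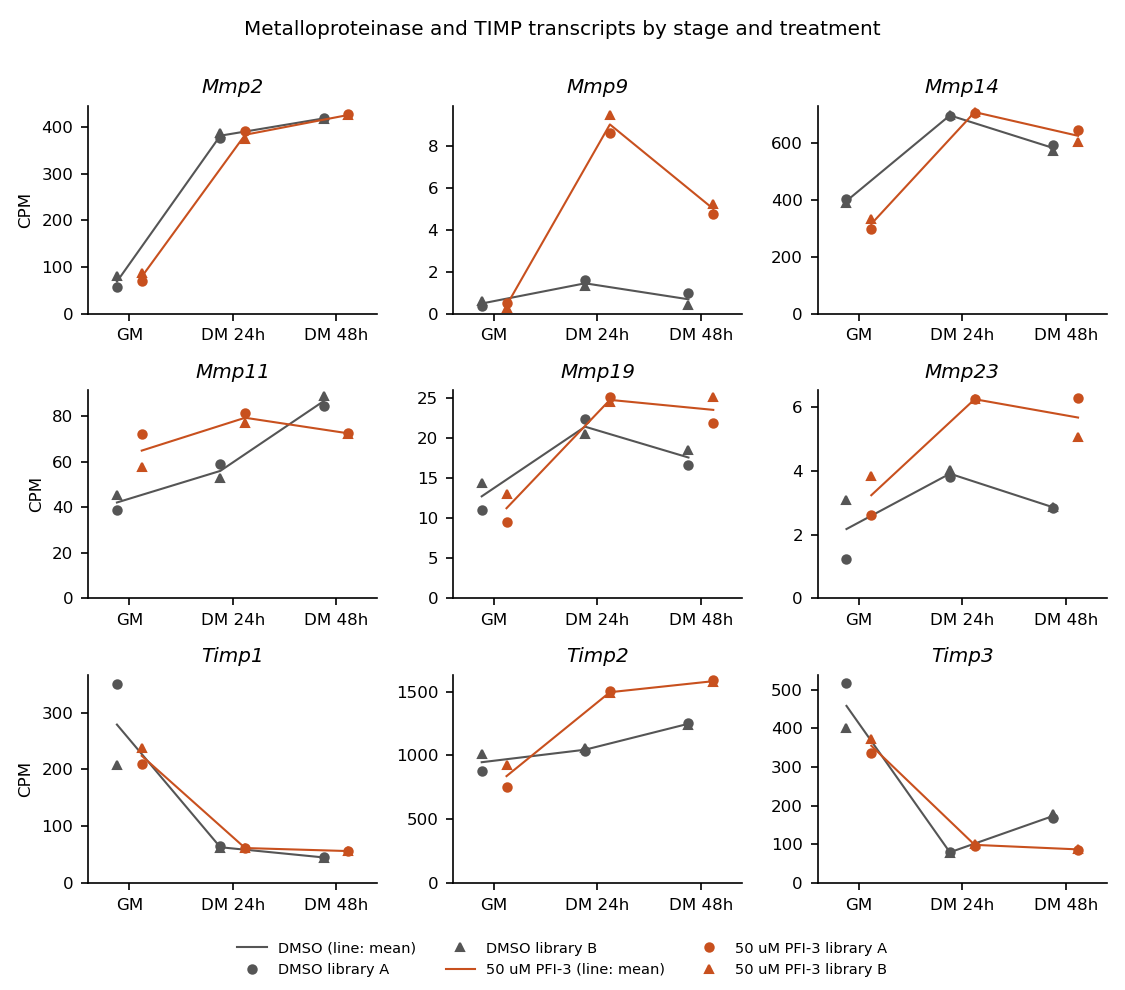
Level (CPM, each axis from 0) of 9 genes by stage, with library A as circles, library B as triangles and lines through the means, DMSO in grey and 50 uM PFI-3 in orange. Mmp9 separates by treatment at both DM stages, Timp2 is higher with PFI-3 at both, and Timp3 recovers at DM 48h with DMSO but stays at 85.5 and 88.4 CPM with PFI-3.

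Treated and vehicle cells were then set against each other within each stage, to ask which of these genes respond to PFI-3 before and during differentiation. In GM, 3 of 9 genes were called, 1 higher (Mmp11) and 2 lower (Mmp14 and Timp3), where 11.6% of all tested genes were called, 5.46% higher and 6.15% lower. At DM 24h 3 of 9 were called, all higher (Mmp9, Mmp11 and Timp2), where 23.6% of all genes were, 12.2% higher and 11.4% lower. The DM 48h comparison called 4 of 9, Mmp9, Mmp23 and Timp2 higher and Timp3 lower, where 27.4% of all genes were, 13.4% higher and 14% lower. With 9 genes and no test over the set, these counts are read gene by gene. Fits of the 4 libraries of a stage alone, which use that stage's own spread, called 0 of 9 in GM. They called only 38 of all 12545 tested genes there, so the 0 is not particular to these 9. In that GM fit 3 of the 9 had an unadjusted p under 0.05, as did 1512 of all tested genes. The DESeq2 Wald test over all libraries called 3 of 9 in GM, and 1118 of all. For DM 24h the 4-library fit called 5 of 9, against 5603 of all. For DM 48h it called 7 of 9, against 5644 of all. Leaving out 1 library moved the counts of the edgeR fit over all libraries, for the 9 genes and for all tested genes alike. More were called in GM without GM DMSO library B. More were called at both DM stages without either GM DMSO library. Fewer were called at DM 48h without any 1 of the 4 DM 48h libraries.

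**Figure D3:**
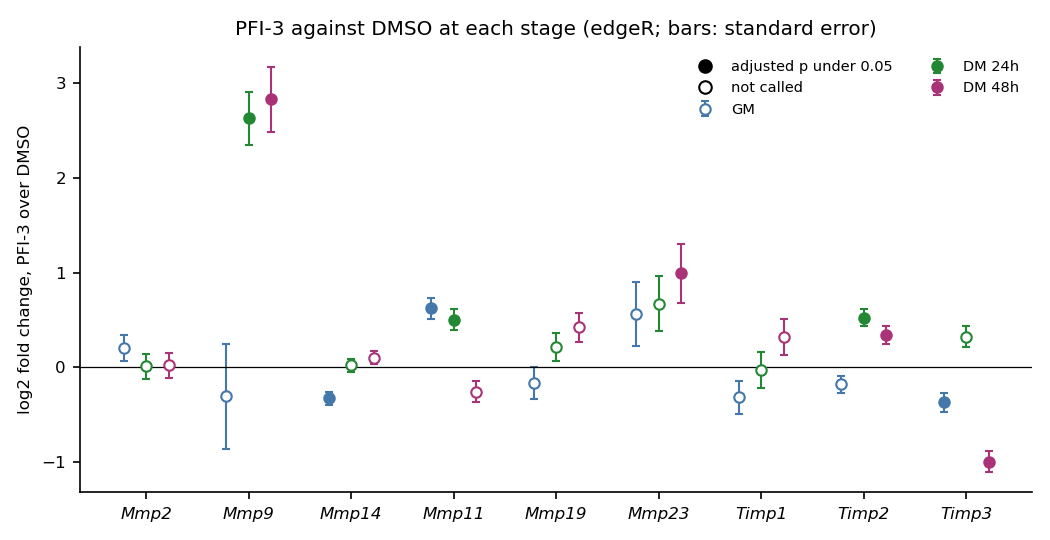
Log2 fold change of PFI-3 over DMSO for 9 genes at GM (blue), DM 24h (green) and DM 48h (purple), with standard error bars (edgeR) and filled points where the adjusted p-value was under 0.05. Mmp9 stands near 2.6 to 2.8 at both DM stages, and Timp3 lies at -1.0 at DM 48h.

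Mmp9 showed the largest change with PFI-3 among the 9 genes at both DM stages. At DM 24h it went from 1.59 and 1.32 CPM with DMSO to 8.6 and 9.46 with PFI-3, and at DM 48h from 0.976 and 0.409 to 4.78 and 5.23. The PFI-3 libraries were several times above the DMSO libraries at each DM stage, while in GM the values, 0.392 and 0.591 CPM against 0.509 and 0.285, overlapped. The rise was 6.19-fold at DM 24h (log2 2.63, SE 0.28, adjusted p = 4.26e-05) and 7.13-fold at DM 48h (2.83, SE 0.34, adjusted p = 7.25e-05). Both calls held in all 9 alternatives and without any 1 library, but the DM 48h size rests on 12 and 5 DMSO counts. Its log2 value was 3.58 without DM 48h DMSO library A and 2.34 without library B. On the log2(FPKM + 1) scale of limma, which compresses low genes, the changes were 1.45 and 1.12.

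These are large ratios of small numbers. The highest Mmp9 count was 124, and at 2.85 and 3.14 FPKM in the DM 24h PFI-3 libraries it was still the lowest of the 9 tested genes per length. Mmp9 is also abundant in white blood cells. The defining leukocyte marker Ptprc did not pass 0.163 CPM in any library and Adgre1 was not listed. The 4 listed markers of that list summed to between 1.19 and 9.55 CPM. Most of that was Cd68 in GM and at DM 24h. In the DM 48h DMSO libraries it was Itgam (mean 2 CPM) and Cd68 (mean 1.43 CPM). In GM the sum was 5.16 and 9.55 CPM with PFI-3 and 5.57 and 2.81 CPM with DMSO. At DM 24h it was 2.59 and 3.2 against 1.19 and 2.09, and at DM 48h 2.9 and 3.04 against 4.31 and 3.52. The part of these markers in the Mmp9 values was not tested.

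Timp2, the most abundant of the genes, had 1033 and 1056 CPM with DMSO and 1501 and 1489 with PFI-3 at DM 24h. At DM 48h it had 1256 and 1240 against 1588 and 1575. Replicates lay within a few per cent of each other, and the PFI-3 libraries were above the DMSO libraries at both stages. Timp2 rose by 0.52 at DM 24h (SE 0.09, 1.43-fold, adjusted p = 0.00199), a call that held without any 1 library. At DM 48h it rose by 0.34 (SE 0.09, 1.27-fold, adjusted p = 0.016), which was lost without any 1 of the 4 DM 48h libraries (adjusted p up to 0.1). The 4-library fits called Timp2 at both DM stages (adjusted p = 7.13e-17 and 2.89e-07). In GM the values were 880 and 1013 CPM against 750 and 925, which overlap (-0.18, adjusted p = 0.236).

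Timp3 took a different course at each stage. At DM 48h it read 169 and 178 CPM with DMSO and 85.5 and 88.4 with PFI-3, a fall of 2.0-fold (log2 change -1.0, SE 0.11, adjusted p = 3.35e-05) that held in all 9 alternatives and without any 1 library. At DM 24h the order was the opposite, 81 and 77.8 CPM with DMSO and 95.3 and 102 with PFI-3. That difference, 0.32, did not pass (SE 0.11, adjusted p = 0.0527), though it passed in 5 of 9 alternatives, the 4-library fit among them (adjusted p = 5.78e-06). The PFI-3 libraries thus stood between 85.5 and 102 CPM at both DM stages, and the gain that DMSO cells showed from DM 24h to DM 48h was not seen in them.

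In GM Timp3 was at 516 and 400 CPM with DMSO and 337 and 373 with PFI-3. All PFI-3 values were below all DMSO values, and the call was narrow (-0.37, SE 0.10, adjusted p = 0.0376). It was lost in 4 of 9 alternatives, including the 4-library fit (adjusted p = 0.412), and without any of 10 of the 12 libraries (up to 0.176).

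Timp1 was not called with PFI-3 at any stage. The differences were -0.32 in GM (adjusted p = 0.248), where 351 and 207 CPM with DMSO bracketed 210 and 238 with PFI-3, -0.03 at DM 24h (adjusted p = 0.922) and 0.32 for the DM 48h pairs (adjusted p = 0.242). At DM 48h its PFI-3 libraries, 56.7 and 55.8 CPM, nonetheless lay above 45.5 and 44.6 with DMSO, and the 4-library fit called it (adjusted p = 0.000409).

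Mmp14 was lower with PFI-3 in GM, at 298 and 335 CPM against 406 and 389 with DMSO, without overlap. The fall was 0.33 on the log2 scale (-0.33, SE 0.07, adjusted p = 0.0112). It was lost when the 4 GM libraries were fitted alone, without or with a block for the replicate letter (adjusted p = 0.352 and 0.103). At DM 24h the pairs, 709 and 712 against 698 and 700, differed by 0.02 (SE 0.07, adjusted p = 0.836), and at DM 48h by 0.10 (adjusted p = 0.305).

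Mmp2 showed no called change with PFI-3: 0.20 in GM (SE 0.14, adjusted p = 0.371), 0.01 at DM 24h (SE 0.13, adjusted p = 0.975) and 0.02 for the DM 48h pairs (SE 0.13, adjusted p = 0.913). Its DM libraries, 376 and 387 CPM against 392 and 375 at DM 24h and 420 and 417 against 427 and 425 at DM 48h, lay within a few per cent of one another. The muscle marker sums at these stages were lower with PFI-3, as given above.

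Mmp11 was higher with PFI-3 in GM, at 72.1 and 57.5 CPM against 38.9 and 45.2, and at DM 24h, at 81.4 and 77 against 58.9 and 52.9. At DM 48h the order turned, with 72.5 and 72.2 against 84.3 and 88.7. No stage had overlapping pairs. The rise was 0.62 in GM (SE 0.11, adjusted p = 0.00476). The 4-library fit gave an adjusted p of 0.213 there, and of 0.0143 with a block for the replicate letter. At DM 24h the rise was 0.50 (SE 0.11, adjusted p = 0.00575, with 5.27e-09 in the 4-library fit). The DM 24h call was lost without DM 24h PFI-3 library A or DM 24h DMSO library B (adjusted p up to 0.0679). At DM 48h the difference of -0.26 did not pass (adjusted p = 0.0932) but did in the 4-library fit (adjusted p = 0.000877).

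Mmp11 shares 155 exon bases with Chchd10, a mitochondrial protein gene on the opposite strand (GENCODE M21 annotation), and whether the counting used strand is not given in the sources used here. Chchd10 held 32 and 30 counts with DMSO and 211 and 220 with PFI-3 in GM, 44 and 73 against 78 and 96 at DM 24h, and 590 and 562 against 273 and 297 at DM 48h. Its log2 changes with PFI-3, GM 2.71 (adjusted p = 1.3e-05), DM 24h 0.53 (adjusted p = 0.0737) and DM 48h -1.08 (adjusted p = 0.000137), had the signs of those of Mmp11. Between stages with DMSO, Chchd10 rose as Mmp11 did. The rise was 0.95 from GM to DM 24h (adjusted p = 0.00438) and 4.31 from GM to DM 48h (adjusted p = 8.55e-10). From DM 24h to DM 48h it was 3.36 (adjusted p = 1.37e-08). The part of Chchd10 in the Mmp11 values was not tested. The values of Mmp19 and Timp3 carry the same limit: Mmp19 shares 789 exon bases with Tmem198b (305 to 479 counts) and Timp3 shares 1733 with Syn3, which held 6 to 23 counts against at least 1005 for Timp3.

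Mmp23 had 2.85 and 2.86 CPM with DMSO and 6.27 and 5.07 with PFI-3 at DM 48h, and 3.8 and 4.02 against 6.24 and 6.25 at DM 24h. PFI-3 libraries were higher at both stages, with 35 to 82 counts behind each value. The DM 48h rise of 0.99 was called (SE 0.31, 1.98-fold, adjusted p = 0.0335), also in the 4-library fit (adjusted p = 0.000661). It was lost with the DESeq2 Wald test (adjusted p = 0.0618) and without any 1 of the 8 DM libraries (up to 0.194). The DM 24h difference of 0.67 was not called (adjusted p = 0.116), though it was in the 4-library fit (adjusted p = 0.00485) and without either GM DMSO library (down to 0.0272), nor was that of 0.56 in GM (adjusted p = 0.309).

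Mmp19 was not called with PFI-3 at any stage, with differences of -0.17 for GM (adjusted p = 0.533), 0.21 for DM 24h (adjusted p = 0.348) and 0.42 for DM 48h (adjusted p = 0.062). At DM 48h its libraries, 21.9 and 25.2 CPM against 16.7 and 18.5, did not overlap, and the 4-library fit called it (adjusted p = 0.00193). Mmp3, stromelysin 1, was below the floor of 3 counts in every library, so no fold is given.

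Whether the PFI-3 effect itself changed with stage was tested by interaction contrasts. Between GM and DM the medium differed too, and time on the agent grew with stage. These cannot be told apart from stage. Between DM 24h and GM 3 of 9 genes differed, against 3.37% of all tested genes; between DM 48h and GM 5 of 9, against 14.5%; and between DM 48h and DM 24h 2 of 9, against 12.1%. The 2 contrasts with GM share the GM libraries, and all 3 rest on the within-stage values already given. Fits of only the 8 libraries compared called 0 (4 at an unadjusted p under 0.05), 3 and 4 of the 9 genes, and 92, 1033 and 4170 of all 12545 tested genes. With a block for the replicate letter within each stage, the first called Mmp9, Timp2 and Timp3 (adjusted p = 0.0256, 0.00113 and 0.02), and 803 of all. The second also called Timp2, Mmp14 and Mmp19 (adjusted p = 0.00443, 0.0207 and 0.0366), and 2267 of all. The DESeq2 Wald test called 2 of 7, 5 and 2, against 460, 1438 and 1268 of all. It gave no adjusted p for Mmp9 and Mmp23 in the first. Leaving out 1 library, as below, moved the counts of all tested genes in the same direction. The first count was 0 without any 1 DM 24h library, 1 without either DM 48h PFI-3 library and 5 without GM DMSO library B, and the second 2 without DM 48h PFI-3 library A or DM 48h DMSO library B.

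The effect on Mmp9 was larger by 2.94 at DM 24h than in GM (SE 0.64, adjusted p = 0.0297) and by 3.15 at DM 48h than in GM (SE 0.67, adjusted p = 0.00848), with no called difference between the DM stages (0.20, adjusted p = 0.823). Without DM 48h DMSO library A the second was 3.89, and with limma on log2(FPKM + 1) they were 1.48 and 1.15. The first was lost in the fit of the 8 libraries (adjusted p = 0.0738) and without any of 7 of the 12 libraries (up to 0.0969). For Timp2 the differences from GM were 0.69 for DM 24h (adjusted p = 0.0161) and 0.52 for DM 48h (adjusted p = 0.0203). Both were lost in the 8-library fits (adjusted p = 0.0842 and 0.0929) and without any 1 of the 4 libraries of the later stage (up to 0.0954 and 0.0783).

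Timp3 differed in all 3 contrasts. Its PFI-3 effect was 0.68 higher at DM 24h than in GM (SE 0.15, adjusted p = 0.0297), 0.63 lower at DM 48h than in GM (log2 -0.63, adjusted p = 0.0136) and 1.31 lower at DM 48h than at DM 24h (log2 -1.31, SE 0.15, adjusted p = 0.000171). The first was lost in the 8-library fit (adjusted p = 0.118) and without any of 9 of the 12 libraries (up to 0.131). The second was lost without DM 48h PFI-3 library A or DM 48h DMSO library B (up to 0.0649). The last held in all 9 alternatives and without any 1 library.

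Mmp11 had an effect at DM 48h that was below that in GM (-0.88, SE 0.15, adjusted p = 0.00248) and below that at DM 24h (-0.76, SE 0.15, adjusted p = 0.00613), and both held in all alternatives and without any 1 library. Chchd10, which overlaps it, differed the same way (-3.79, adjusted p = 7.6e-06, and -1.61, adjusted p = 0.00112). For Mmp14 the effect at DM 48h was 0.43 above that in GM (adjusted p = 0.0115). It was lost in the 8-library fit (adjusted p = 0.0682) and without DM 48h PFI-3 library A or DM 48h DMSO library B (up to 0.0635).

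Enzyme and inhibitor transcripts were also summed per length as a description, with no test. The summed FPKM of the 7 enzymes over that of the 3 inhibitors was 0.191 and 0.255 in the GM DMSO libraries and 0.262 and 0.242 with PFI-3. With DMSO it stood at 0.904 and 0.907 at DM 24h, then 0.779 and 0.775 at DM 48h. With PFI-3 it was 0.722 and 0.711, then 0.679 and 0.662. The ratio was therefore several times higher in DM than in GM, and lower with PFI-3 than with DMSO at both DM stages.

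At DM 24h the enzyme sum was 351 and 350 FPKM with DMSO and 386 and 378 with PFI-3, and the inhibitor sum 388 and 386 against 535 and 532. By FPKM the treated cells had more of both, and the inhibitor sum, of which Timp2 made up at least 74.9% in every DM library, differed more. The FPKM values lack the library scaling behind CPM. Means of Mmp2 with DMSO and PFI-3 were 127 and 132 FPKM, but 382 and 384 CPM. Those of Mmp14 were 187 and 197 FPKM, but 699 and 710 CPM. Over all tested genes the median log2 change with PFI-3 was 0.036 with limma on log2(FPKM + 1) and -0.001 with edgeR.

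**Figure D4:**
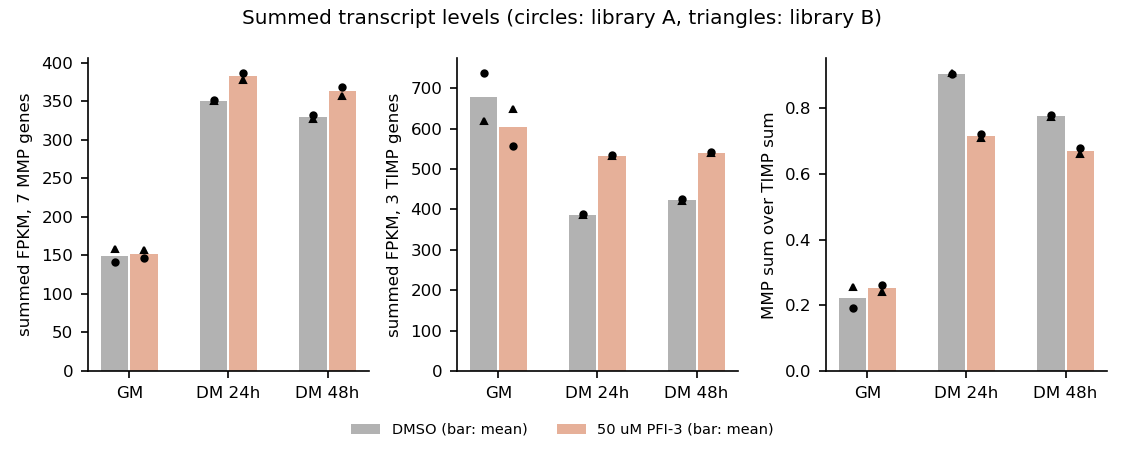
Summed FPKM of the 7 enzymes, summed FPKM of the 3 inhibitors and their ratio by stage, with bars for means, circles for library A, triangles for library B, grey for DMSO and orange for 50 uM PFI-3. The mean ratio goes from 0.223 in GM to 0.905 at DM 24h with DMSO, and with PFI-3 is 0.716 and 0.671 at the DM stages.

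Across the 12 libraries, log2 CPM of Mmp2 and Timp1 ran opposite to each other (Pearson r = -0.99), and Mmp2 ran with Mmp14 (0.92) and Mmp14 with Mmp19 (0.92). The 12 points share stage and treatment, so these values describe the stage pattern and carry no test. By the same measure the genes nearest to each were Tcf4 and Afap1l2 for Mmp2 (r = 0.998 and 0.997), Tcf7l2 and Bcl9 for Mmp14 (0.990 and 0.988), and Noc4l and Wdr36 for Timp1 (0.994 and 0.992). Nearest to Timp2 were Gprc5b and Tlr2 (0.969 and 0.955) and to Timp3 Trib1 and Sgk1 (0.976 and 0.972). For Mmp9 they were Slc38a10 and Fat4 (0.954 and 0.952), for Mmp11 Dhrs7 and Abca8b (0.969 and 0.963), for Mmp19 Pik3r3 and Prrx1 (both 0.979) and for Mmp23 Smpd1 and Bbs1 (both 0.967).

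The other genes of the family and its pathway were read from 5 lists, and each list's median log2 change is given beside that of all tested genes, which lay between -0.01 and 0.00 for PFI-3 at the 3 stages. The lists' counts stand against the shares of all tested genes: with PFI-3, 5.46%, 12.2% and 13.4% were higher at GM, DM 24h and DM 48h, while 6.15%, 11.4% and 14% were lower. The 4-library fits called 38, 5603 and 5644 of all 12545 tested genes at these stages. Leaving out 1 library also changed the counts of all tested genes. Of 17 further family genes, MMPs and Timp4, 5 passed the low-count filter. With PFI-3, 1 of 5 was called in GM, and higher. At DM 24h 2 were higher and 1 lower. At DM 48h edgeR and the DESeq2 Wald test called 0, with 1 at an unadjusted p under 0.05 by either, and the 4-library fit called 2. The medians of the 5 were 0.15, -0.11 and 0.23.

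Mmp15, a membrane-type relative of Mmp14, had 47.9 and 52.7 CPM with DMSO and 32.4 and 23.9 with PFI-3 at DM 24h, and fell by 0.84 (adjusted p = 0.000454). Mmp28, epilysin, went from 5.31 and 4.8 to 8.98 and 9.38 CPM at DM 24h, a rise of 0.86 (adjusted p = 0.0242). In GM it rose by 0.94 (adjusted p = 0.0322). The 4-library fit gave an adjusted p of 0.363, and of 0.0195 with a block for the replicate letter. Mmp24 rose by 0.55 at DM 24h (adjusted p = 0.0331), a call lost with the DESeq2 Wald test (adjusted p = 0.0992). The 4-library fit called Mmp28 and Mmp24 at DM 24h (adjusted p = 5.08e-05 and 0.000873). Leaving out libraries in turn ended the GM call of Mmp28 for 10 of the 12 (adjusted p up to 0.158), its DM 24h call for each of the 4 DM 24h libraries (up to 0.14) and that of Mmp24 for 5 libraries (up to 0.237).

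Among the matrix proteins these enzymes cut, most of the genes called were lower with PFI-3. Of 17 genes 16 were tested: 6 were lower and 1 higher in GM, 9 lower and 2 higher at DM 24h, and 9 lower and 1 higher at DM 48h, with medians of -0.34, -0.47 and -0.43. Col1a1, a chain of type I collagen, went from 399 and 396 CPM to 63.8 and 61.3 at DM 24h (log2 -2.67, adjusted p = 6.07e-10) and from 594 and 576 to 129 and 126 at DM 48h (-2.20, adjusted p = 3.88e-09). In GM it was already lower (-1.51, adjusted p = 8.51e-07; 0.0255 in the 4-library fit). Tnc, tenascin C, fell by 2.01 at DM 24h (adjusted p = 0.000199) and fell by 1.94 at DM 48h (adjusted p = 0.000171). Its GM change of -1.65 (adjusted p = 0.00169) rested on DMSO libraries of 1008 and 457 CPM and was lost in the 4-library fit (adjusted p = 0.168). With a block for the replicate letter, that fit called the change (adjusted p = 0.00214). Without GM DMSO library A it was -0.97. Col1a2 fell by 0.88 at DM 24h (adjusted p = 0.0026) and Col4a1, of the basement membrane, by 0.80 at DM 48h (adjusted p = 0.00275). The GM count of 7 called genes was 1 in the 4-library fit. The DM counts of 11 and 10 were at their lowest, 6, without library B of the PFI-3 group of that stage.

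Of 17 activators and cell-surface regulators, 15 were tested. In GM 6 were lower and 0 higher, and 2 were higher and 3 lower at both DM stages, with medians of -0.14, -0.15 and 0.09. Thbs1, thrombospondin 1, which binds Mmp2 and Mmp9, went from 1184 and 973 CPM to 422 and 479 in GM (-1.26, adjusted p = 1.14e-05) and from 945 and 971 to 607 and 579 at DM 24h (-0.69, adjusted p = 0.000214). The GM call of Plau, the urokinase that generates plasmin (-0.61, adjusted p = 0.0441), was lost in 4 of 9 alternatives (up to 0.403) and without any of 10 of the 12 libraries (up to 0.122). Cav1, the caveolin, fell at DM 24h (-0.47, adjusted p = 0.0351) and DM 48h (-0.55, adjusted p = 0.0154), and Cd44, a surface anchor for Mmp9, at DM 24h (-0.32, adjusted p = 0.0415). The 4-library fits called each of these (adjusted p = 1.75e-13 and 7.68e-10 for Cav1, 1.64e-09 for Cd44). The DM 24h calls of Cav1 and Cd44 were lost with limma (adjusted p up to 0.075 and 0.0584) and without any 1 of the 8 DM libraries (up to 0.181 and 0.191). At DM 48h Reck, a membrane-anchored MMP inhibitor, rose from 6.34 and 7.2 to 9.79 and 10.3 CPM (0.57, adjusted p = 0.017, with 0.116 by the DESeq2 Wald test and 0.0032 in the 4-library fit). Plat, tissue plasminogen activator, fell by 0.49 (adjusted p = 0.000985). The DM 48h calls of Reck and Cav1 were lost without any 1 of the 4 DM 48h libraries (up to 0.128 and 0.1). With each stage's 4 libraries alone, 1 gene of the list was called in GM, then 12 at DM 24h and 11 at DM 48h. Leaving out 1 library gave 2 to 8 in GM, 1 to 10 at DM 24h, then 1 to 9 at DM 48h, the lowest without GM PFI-3 library A, any DM 24h library and either DM 48h DMSO library.

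Of 21 ADAM and ADAMTS genes, families with some members that Timp3 also inhibits, 19 were tested. In GM 2 were higher and 5 lower, at DM 24h 3 higher and 5 lower, and at DM 48h 4 higher and 2 lower, with medians of -0.03, -0.15 and 0.04. Adam12, a myoblast fusion-associated member, fell by 1.32 at DM 24h, from 71.4 and 74.8 CPM to 28.9 and 29.7 (adjusted p = 0.00162). Adamts5 fell by 0.88 (adjusted p = 0.000224) and Adam15 rose by 0.70 (adjusted p = 0.000306) at the same stage. At DM 48h Adam23 rose by 1.13 (adjusted p = 0.0102, with 5.82e-07 in the 4-library fit), while Adam19 fell by 0.81 (adjusted p = 0.00515) and Adamts6 by 0.75 (adjusted p = 0.000784). The GM falls of Adamts14 (-0.91, adjusted p = 0.0156) and Adam12 (-0.84, adjusted p = 0.0256) were lost in the 4-library fit (adjusted p = 0.307 and 0.345) and without GM DMSO library A or GM PFI-3 library B (up to 0.0672 and 0.134). The call of Adam23 was lost without any 1 of the 4 DM 48h libraries (up to 0.0814). The 4-library fit called 0 of the list in GM, with 8 at an unadjusted p under 0.05, then 14 at DM 24h and 10 at DM 48h. Leaving out 1 library gave 4 to 10, 4 to 11 and 4 to 9 called genes at the 3 stages, the lowest without GM DMSO library A, any DM 24h library and either DM 48h library A.

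Of 20 transcription factors known for MMP promoters, 19 were tested. In GM and again at DM 24h, 3 rose and 3 fell, while at DM 48h 3 rose and 4 fell, with medians of -0.15, 0.01 and -0.19. At DM 24h Etv4 fell by 0.81 (adjusted p = 0.00229) and Etv5 by 0.62 (adjusted p = 0.00732), both ETS factors, and the AP-1 subunit Fosl2 rose by 0.46 (adjusted p = 0.00585). The 4-library fit called Etv5 and Fosl2 too (adjusted p = 0.000589 and 1.19e-09). At DM 48h the AP-1 subunits parted: Junb fell from 429 and 405 to 232 and 222 CPM (-0.88, adjusted p = 3.37e-05) and Fosl1 rose from 13.8 and 13.2 to 21.5 and 25.3 CPM (0.79, adjusted p = 0.00129). Etv5 fell by 0.75 (adjusted p = 0.00151). In GM Snai2 rose by 0.55 (adjusted p = 0.00345) and Runx1 fell by 0.48 (adjusted p = 0.000952), but neither was called in the 4-library fit (adjusted p = 0.192 and 0.188), which called 0 of this list in GM (7 at an unadjusted p under 0.05), then 13 at DM 24h and later 12 at DM 48h. The DM 24h calls of Etv5 and Fosl2 were each lost without 1 of 2 DM 24h libraries (up to 0.0746 and 0.0678), the B libraries for Etv5 and the A libraries for Fosl2. Leaving out 1 library gave 4 to 10, 3 to 8 and 4 to 12 called genes at the 3 stages, the lowest without GM DMSO library A, any DM 24h library, and DM 48h DMSO library A or PFI-3 library B.

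**Figure D5:**
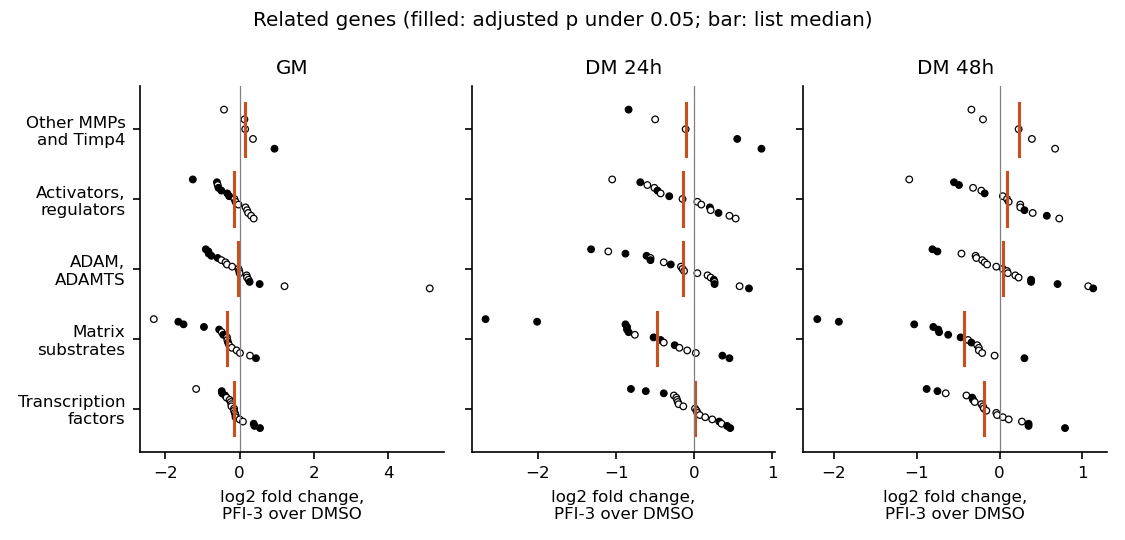
Log2 fold change of PFI-3 over DMSO for the tested genes of 5 related lists at each stage (each panel has its own horizontal scale), with filled points where the adjusted p-value was under 0.05 (edgeR) and an orange bar at each list's median. The matrix substrate median lies left of 0 at every stage, at -0.34, -0.47 and -0.43.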

How the data were processed

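RNA of 12 C2C12 libraries was read from the deposited gene tables, 1 per library, in which the authors gave an expected count and an FPKM value per gene, per the file headers. HISAT, StringTie, Cufflinks, Bowtie, RSEM, DESeq2 and the mm10 build are named in the submitters' processing notes, without versions or roles; whether counting used strand is not given in the sources used here. Tables listed 13499 to 14231 genes, and a gene missing from a table was taken as 0. Of 6963 cases listed in only 1 library of a pair, 97% had at most 5 counts.

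Expected counts were rounded and tested with edgeR 4.0.16 (R 4.3.3; quasi-likelihood test, TMM scaling, edgeR's low-count filter, 1 model of 6 groups over all 12 libraries). P-values are two-sided and adjusted by the Benjamini-Hochberg method over 12545 genes, and a gene was called under 0.05. All adjusted p-values in the text are edgeR's unless another tool is named. CPM uses TMM-scaled totals. The 2 libraries of a group are described as biological duplicates, and what libraries of 1 letter share is not stated. P-values reflect only the spread within these pairs. That spread is estimated over all 12 libraries, so GM calls lean on the DM pairs. At 12576374 to 13658352 counts per library, genes at or below a floor of 3 counts were given no fold; counting error is all that this floor covers.

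Alternatives were size factors and the Wald test of DESeq2 1.42.0, no filter, a filter at a mean of 10 counts, limma 3.58.1 on log2(FPKM + 1) and log2(FPKM + 0.1), fits of only the libraries compared, a replicate block, and leaving out each library. Recounting the related lists under these was added after the data had been seen. On simulated counts for PFI-3 at DM 24h over 12545 genes, edgeR recovered 87% of 200 genes changed 2-fold, and 5.43% of its calls were false. The changed genes were drawn from those above a minimum mean count, and the counts from edgeR's own fitted spread. Recovery among scarcer genes, in the other comparisons, or with GM pairs less alike than DM pairs, was not tested. Overlaps of genes came from GENCODE M21 and promoters from RefSeq (GRCm38.p6).

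Named are the 10 genes; from each list, the largest changes among called genes averaging 5 CPM or more (up to 3 at each DM stage, 2 in GM); and the 2 genes of highest correlation with each member. Chchd10, Tmem198b and Syn3 were named for their overlap after values were seen. The members and lists were chosen with earlier results of these data known.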

Additional observations from a re-analysis of the deposited data

Results flagged for a closer look

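Some PFI-3 effects differed between stages (edgeR interaction contrasts, log2 scale). Of the 9 tested genes 3 were called for DM 24h against GM, where 3.37% of all tested genes were. For DM 48h against GM 5 were called (14.5% of all), and for DM 48h against DM 24h 2 (12.1% of all). Against GM, the effect at DM 24h was 2.94 larger for Mmp9, 0.69 larger for Timp2 and 0.68 larger for Timp3. Against GM, the effect at DM 48h was 3.15 larger for Mmp9, 0.43 larger for Mmp14 and 0.52 larger for Timp2, while it was lower for Mmp11 (-0.88) and Timp3 (-0.63). Between DM 48h and DM 24h it was lower for Mmp11 (-0.76) and Timp3 (-1.31). Of these 10 differences, the Mmp11 pair, Mmp9 at DM 48h and the last Timp3 value kept their call in all 9 alternatives and without any 1 library.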

How the results depend on the processing

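The GM pairs were the least alike, and all 12 libraries share 1 spread, so calls in GM lean on the DM libraries. Fits of only the libraries compared gave 0 called genes for PFI-3 in GM (3 with all libraries), 5 at DM 24h (3), 7 at DM 48h (4) and 8 for DM 48h against DM 24h with DMSO (5). For the stage contrasts of the PFI-3 effect they gave 0 for DM 24h against GM (3), 3 for DM 48h against GM (5) and 4 for DM 48h against DM 24h (2). Of all 12545 tested genes the same fits called, in the same order, 38, 5603, 5644 and 7761, then 92, 1033 and 4170. The letters A and B are not said to mark a shared culture, day or animal. Same-letter deviations had correlations of 0.395 (GM), 0.0131 (DM 24h) and 0.0296 (DM 48h), with only 2 pairs each. A replicate block over all 12 libraries gave 5 called genes for PFI-3 at DM 48h and left the other 8 counts as they were. Fits of the libraries compared with a replicate block called 1 gene in GM, 6 at DM 24h, 8 at DM 48h, 8 for DM 48h against DM 24h with DMSO and 4 for the contrast of the DM stages. Of all 12545 tested genes these called 922, 5715, 6077, 7643 and 4344.

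Leaving out each library in turn gave 2 to 6 called genes for PFI-3 in GM, 2 to 5 at DM 24h and 2 to 7 at DM 48h. With DMSO it gave 5 to 9 for DM 24h against GM, 6 to 8 for DM 48h against GM and 2 to 6 for DM 48h against DM 24h. For the PFI-3 effect it gave 0 to 5 for DM 24h against GM, 2 to 7 for DM 48h against GM and 2 to 3 for DM 48h against DM 24h. The highest counts came without a GM DMSO library, and where a group was left with 1 library, it was assumed to vary like the others. The counts of all tested genes also changed with the library left out, so these ranges are not particular to the 9 genes.

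Log2 changes that turned sign were called neither with all libraries nor in the setting that turned them. At DM 24h these were Mmp2 and Mmp14 with DESeq2-style size factors (-0.02 and -0.01) and the DESeq2 Wald test (-0.02 and -0.01), and Timp1 with limma at both pseudocounts (0.02 and 0.02). Others were the PFI-3 effect on Mmp23 at DM 24h against GM (-0.03, limma on log2(FPKM + 0.1)) and on Mmp9 at DM 48h against DM 24h (-0.33, limma on log2(FPKM + 1)). With each library left out, the PFI-3 change in GM ran from -0.04 to 0.49 for Mmp2, -0.77 to 0.04 for Mmp9, -0.42 to 0.03 for Mmp19 and -0.65 to 0.11 for Timp1. At DM 24h it ran from -0.03 to 0.04 for Mmp2 and -0.08 to 0.02 for Timp1. For DM 48h against GM with DMSO it ran from -0.27 to 0.97 for Mmp9 and -0.12 to 1.18 for Mmp23. The PFI-3 effect at DM 24h against GM ran from -0.48 to 0.05 for Mmp2, -0.27 to 0.05 for Mmp11, -0.69 to 0.61 for Mmp23 and -0.14 to 0.62 for Timp1. At DM 48h against GM it ran from -0.46 to 0.06 for Mmp2 and -0.37 to 0.92 for Mmp23, and at DM 48h against DM 24h from -0.01 to 0.05 for Mmp2 and -0.29 to 0.95 for Mmp9. Some of these passed without GM DMSO library B: in GM Mmp2 (0.49, adjusted p = 0.00701) and Timp1 (-0.65, adjusted p = 9.89e-05), Mmp23 for DM 48h against GM (1.18, adjusted p = 0.012), the PFI-3 effect on Mmp2 against GM (-0.48 and -0.46, adjusted p = 0.0417 and 0.0225) and that on Timp1 at DM 24h (0.62, adjusted p = 0.0037). With limma on log2(FPKM + 1), the Mmp9 stage changes with DMSO were 0.34 (DM 24h against GM) and -0.27 (DM 48h against DM 24h). The cause was not tested.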
